A study of Mus musculus with 6 samples.

Results

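The Ifitm family encodes interferon-induced transmembrane proteins, small membrane proteins of the dispanin group. All probe sets whose platform symbol was exactly Ifitm1, Ifitm2, Ifitm3, Ifitm5 or Ifitm6 were taken, which gave 5 probe sets for 5 genes, 1 each, of 45037 probe sets and 18193 genes on the array. The genes had been picked with the differences between irradiated and control cultures already known, Ifitm6 among them, so those differences are given as values with their errors and without a test. Irradiated cultures were mouse mesenchymal stem cells exposed for 12 h to broadband terahertz pulses centred near 10 THz. Each pulse lasted 35 fs, pulses came at 1 kHz, and the average power density was 1 mW/cm2. Control cultures stood beside them without irradiation. Both groups came from a commercial stock of mouse cells, were held at 26 to 27 °C, and had been given a mixture that drives fat cell formation, added again 48 h before the irradiation. It held insulin at 5 µg/ml, the steroid dexamethasone and the PPAR gamma agonist Roziglitazone at 1 µM each, and the phosphodiesterase inhibitor 3-Isobutyl-1-methylxanthine at 100 µM. There were 3 independent experiments with 1 irradiated and 1 control array each, so 6 arrays in all. Levels are the authors' log2 values of each probe set, a group of probes against 1 transcript. Precision is limited by having 3 arrays a group.

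Ifitm proteins sit in the plasma membrane and in endosomes and lysosomes, where they hinder the fusion of enveloped viruses with the cell's membranes. Interferons, secreted proteins of antiviral defence, raise Ifitm1, Ifitm2 and Ifitm3 through STAT and IRF transcription factors that bind the interferon-stimulated response element, or ISRE, and the gamma-activated site, or GAS. Many stem and stromal cells also make these 3 without interferon, and in the mouse Ifitm1 and Ifitm3 are known from early germ cells as well. Ifitm5, also called Bril, departs from this pattern, being a gene of bone-forming osteoblasts needed for normal mineral deposition and not known as a target of interferon. In assembly GRCm38.p6 the 5 genes lie side by side on chromosome 7, in the order Ifitm5, Ifitm2, Ifitm1, Ifitm3 and Ifitm6, between Pgghg and B4galnt4.

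RefSeq promoter windows of GRCm38.p6, from 250 bases before to 50 bases after an annotated transcript start, were found for all 5 genes. The 250 upstream bases are shown for Ifitm6, the member with the widest difference, and for Ifitm2, an interferon-responsive member whose levels differed little between irradiated and control cultures. The Ifitm3 line is a 26-base stretch just inside the transcript that holds one of its ISRE matches. All are written 5′ to 3′ along the gene. Capitals mark matches to the ISRE core, which is GAAA repeated after any 2 bases, or to the TATA box TATAAA on either strand.
Ifitm6, GRCm38.p6 chr7:141016893-141017142, minus strand: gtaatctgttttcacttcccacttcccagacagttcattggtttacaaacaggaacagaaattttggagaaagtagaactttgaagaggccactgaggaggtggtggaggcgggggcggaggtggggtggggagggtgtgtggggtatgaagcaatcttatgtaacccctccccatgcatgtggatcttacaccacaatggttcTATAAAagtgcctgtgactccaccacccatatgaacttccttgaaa
Ifitm2, GRCm38.p6 chr7:140955962-140956211, minus strand: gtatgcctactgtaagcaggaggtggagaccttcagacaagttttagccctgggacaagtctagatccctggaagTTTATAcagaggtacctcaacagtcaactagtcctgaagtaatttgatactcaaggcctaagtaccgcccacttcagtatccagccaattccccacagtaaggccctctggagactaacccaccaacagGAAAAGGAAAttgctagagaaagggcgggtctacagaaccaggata
Ifitm3, GRCm38.p6 chr7:141010708-141010733, minus strand: acttctgaGAAACCGAAActgccgca

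ISRE matches were found in Ifitm2 and Ifitm3 and in none of the windows of Ifitm1, Ifitm5 and Ifitm6. Ifitm6 had a TATA box on its own strand, with its first base at -46. In Ifitm2 the ISRE match began at -46, and the capitals further upstream are TATAAA read on the opposite strand. Ifitm3 had an ISRE match from 3 to 12 and another from 20 to 29, counted from the first transcribed base as 1. An ISRE match on either strand was present in 3.44% of 32851 promoter windows and a TATA box in 13.6%. The GAS motif TTCNNNGAA, present in 8.30% of windows, occurred in Ifitm6 from -10 to -2 and in Ifitm3 from 14 to 22, where it overlapped the second ISRE match by its last bases. The GC box GGGCGG, present in 35.7% of windows, matched in Ifitm2, Ifitm3, Ifitm5 and Ifitm6. The AP-1 motif TGANTCA, present in 7.81%, matched in Ifitm3 alone among the 5. None of the 5 windows held the cAMP response element TGACGTCA (1.79% of windows) or the PU.1 core GAGGAA (28.3% of windows). The Ifitm1 window held none of the 7 motifs searched, on either strand. These matches describe letters in the windows and do not show that a factor was bound.

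**Figure D1:**
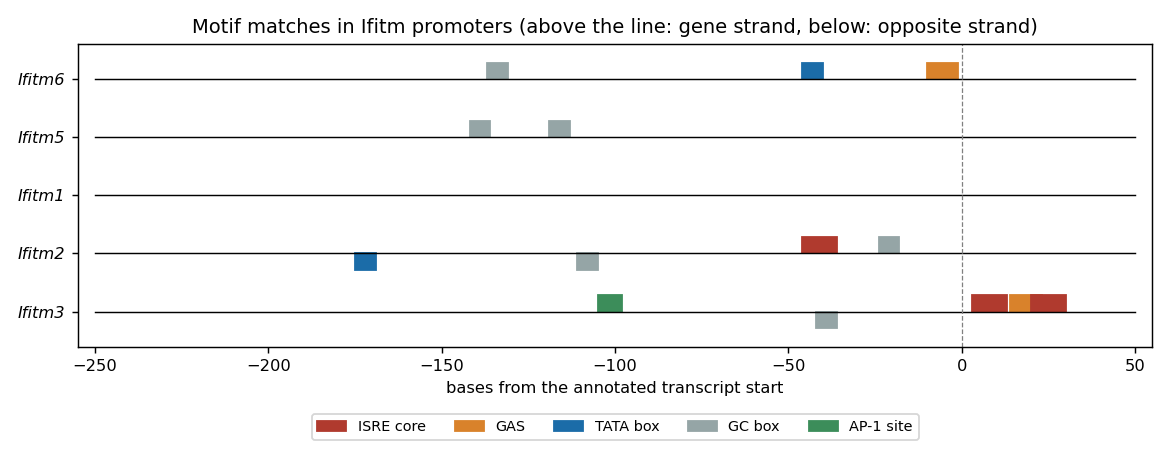
Motif matches in the promoter windows of the 5 Ifitm genes. The horizontal axis is the distance in bases from the annotated transcript start, boxes above a line lie on the gene's strand and boxes below it on the opposite strand, and colours give the motif. ISRE matches (dark red) are seen in Ifitm2, from -46 to -37, and in Ifitm3, from 3 to 12 and 20 to 29, and in none of the windows of Ifitm1, Ifitm5 and Ifitm6.

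Ifitm6 had the widest difference of the 5 members. Its probe set read 5.14, 5.75 and 5.82 on the irradiated arrays of experiments 1, 2 and 3, against 6.17, 7.13 and 7.85 on the control arrays. Every irradiated array was below every control array, and the control arrays were spread over 1.68 log2 units, more than the 0.68 of the irradiated arrays. The means were 5.57 ± 0.37 in irradiated and 7.05 ± 0.84 in control cultures (SD, n = 3 each). Within the pairs the log2 differences, irradiated minus control here and throughout, were -1.03, -1.38 and -2.03, which correspond to 2.04-fold, 2.60-fold and 4.08-fold lower signal in irradiated cultures. The limma estimate over the 3 experiments was -1.48 ± 0.19 (SE), a 2.79-fold lower signal. The SE, here and throughout, is limma's moderated one, which combines a probe set's own spread with that of all probe sets. The SD of the 3 Ifitm6 differences was 0.51. With experiment 3 left out it was -1.20. The irradiated mean was under the level of 6 below which a probe set was called dim.

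Of all 45037 probe sets 0.0533% were at least 2-fold lower by their mean, and Ifitm6 was the 1 member of 5 that was. Groups that do not overlap, with the irradiated arrays lower, were seen in 4.82% of probe sets and in 2 of the 5 members. A lower value in all 3 experiments was found for 13.8% of probe sets and for the same 2 members, Ifitm5 and Ifitm6. At a limma adjusted p under 0.05 there was no probe set, 0% of 45037, with 3631 at an unadjusted p under 0.05. These shares stand beside the members as background, since the members were picked from this comparison.

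Ifitm5, the osteoblast gene of the family, was dim in both groups. It read 4.94, 5.10 and 5.16 on the irradiated arrays and 5.18, 5.36 and 5.62 on the control arrays. The irradiated arrays were again all below the control arrays, by a narrow gap. The means were 5.07 ± 0.11 in irradiated and 5.39 ± 0.22 in control cultures (SD, n = 3 each), with a log2 difference of -0.32 ± 0.10 (SE). Of 11 osteoblast markers 7 were measured, 4 of these at a mean of at least 6, and all 7 were lower by their mean in irradiated cultures, where 47.9% of all genes were. The list's median was -0.06, against 0.01 over all genes, and each marker but Ibsp differed by less than its moderated SE. In all 3 experiments 2 of the 7 were lower, against 15.1% of all genes. None passed the limma threshold and 1 of the 7, Ibsp, had an unadjusted p under 0.05, where 1512 of 18193 genes (8.31%) did. Ibsp, a sialoprotein of bone matrix, read 8.16, 8.53 and 8.94 on the irradiated arrays and 8.21, 8.88 and 9.56 on the control arrays, a difference of -0.34 ± 0.13 (SE; limma adjusted p = 0.6). Sp7, the osteoblast transcription factor, was dim, with means of 5.72 in irradiated and 5.77 in control cultures.

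Ifitm1, which acts mainly at the cell surface, lay near the dim level and did not keep 1 direction. It read 5.28, 5.54 and 5.94 on the irradiated arrays and 5.40, 5.41 and 6.51 on the control arrays. The control array of experiment 3 was the single array above 6. The within-pair differences were -0.12, 0.13 and -0.57, with a mean of -0.19 ± 0.15 (SE) that was 0.00 without experiment 3.

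Ifitm2 and Ifitm3 were bright on every array and differed little between the groups. Ifitm2 read 11.12, 11.08 and 11.59 on the irradiated arrays and 11.13, 11.08 and 11.81 on the control arrays. Both arrays of experiment 3 were higher than the other 4, and the groups overlapped. Its difference was -0.08 ± 0.10 (SE), or 0.00 without experiment 3. Ifitm3, the member best known for stopping influenza virus in endosomes, read 12.34, 12.05 and 12.17 on the irradiated arrays and 12.26, 12.02 and 12.26 on the control arrays. Its difference was 0.01 ± 0.10 (SE), with within-pair values of 0.08, 0.03 and -0.09, and the groups overlapped. The highest value on any array was 14.53, above both probe sets. Ifitm2 and Ifitm3 are close relatives in sequence, and whether their probe sets pick up each other's transcripts was not tested. Levels are not set against each other between genes, since probe sets differ in how strongly they bind.

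**Figure D2:**
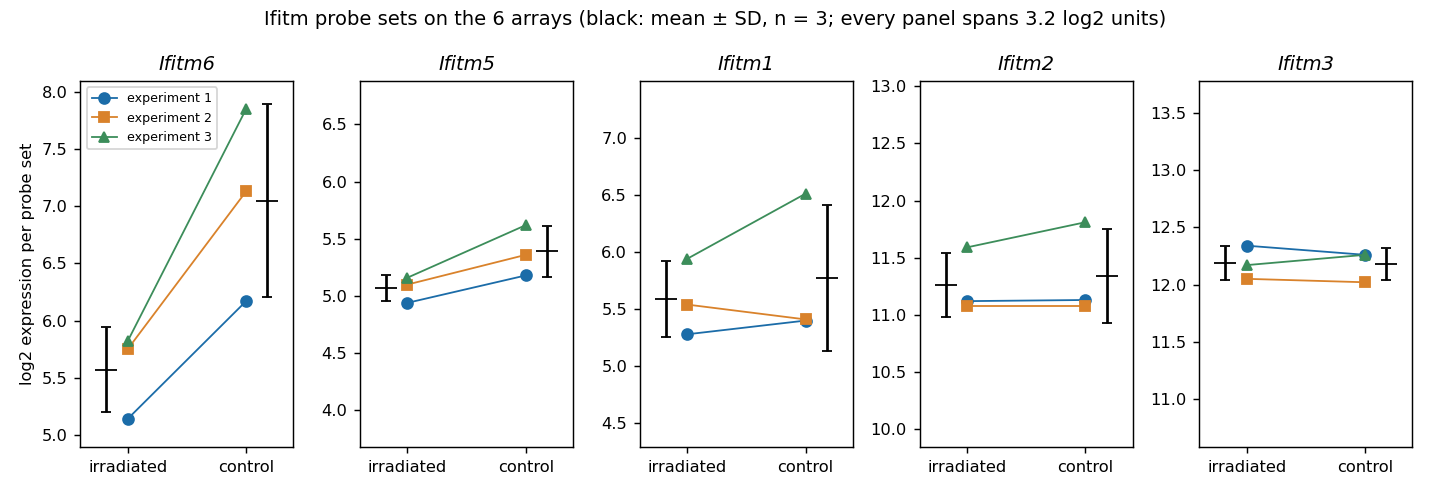
Log2 expression of the 5 Ifitm probe sets, with the irradiated arrays on the left and the control arrays on the right of each panel. Lines join the 2 arrays of an experiment, black marks give the mean and SD of 3 arrays, and every panel spans the same height. The lines of Ifitm6 climb steeply to the control side (means of 5.57 in irradiated and 7.05 in control cultures), and those of Ifitm3 are nearly flat.

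Not every member kept 1 direction over the experiments. Ifitm1 differed by -0.12, 0.13 and -0.57 in experiments 1, 2 and 3. Ifitm2 differed by -0.01, 0.00 and -0.22, and Ifitm3 by 0.08, 0.03 and -0.09. The median difference of the 5 members was -0.19, against 0.01 over all 18193 genes. On the irradiated array of experiment 3 the hybridisation controls, bacterial and phage transcripts added before hybridisation, exceeded those of its partner by 0.502 log2 units, against 0.081 and -0.034 in experiments 1 and 2. With experiment 3 left out the differences were -1.20 for Ifitm6, -0.25 for Ifitm5, 0.06 for Ifitm3 and 0.00 for both Ifitm1 and Ifitm2. Whether the gap in the hybridisation controls has a part in the Ifitm values was not tested.

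The experiments themselves, with irradiated and control arrays averaged, are a comparison that the choice of genes did not use. It was added after the values were seen. Averaged over both arrays, Ifitm6 stood at 5.65 in experiment 1, 6.44 in experiment 2 and 6.83 in experiment 3, and Ifitm1 at 5.34, 5.47 and 6.22. Ifitm2 stood at 11.12, 11.08 and 11.70. The spans between the lowest and the highest experiment were 1.18 for Ifitm6, 0.88 for Ifitm1, 0.62 for Ifitm2, 0.33 for Ifitm5 and 0.26 for Ifitm3. No member passed limma's moderated F test of the experiment term, with adjusted p values of 0.148 to 0.474 over all probe sets, and 2 probe sets of 45037 (0.00444%) did. Cultures, extraction and arrays of an experiment cannot be told apart here.

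Other genes of the interferon pathway were mostly higher by their mean in irradiated cultures, though none passed the test. Their lists were chosen with earlier results of these data known, so the counts are a description. Of 42 other interferon-stimulated genes 40 were measured and 20 had a mean of at least 6 in 1 group. By their mean 31 were higher and 9 lower in irradiated cultures, where 51.1% of all genes were higher and 47.9% lower. In all 3 experiments 8 were higher and none was lower, against 15.7% and 15.1% of all genes. The list's median log2 difference was 0.09, against 0.01 over all genes, and its medians in the 3 experiments were -0.03, 0.11 and 0.10. No member passed the limma threshold (smallest adjusted p = 0.504), and 5 of 40 had an unadjusted p under 0.05, against 8.31% of all genes. Tap1, which carries peptides into the endoplasmic reticulum for antigen presentation, read 6.60, 6.03 and 6.29 on the irradiated arrays and 5.92, 5.55 and 5.70 on the control arrays. Tap1 differed by 0.58 ± 0.10 (SE; limma adjusted p = 0.504). Psmb9, a subunit of the immunoproteasome, read 7.28, 7.34 and 7.12 on the irradiated arrays and 6.74, 6.80 and 6.55 on the control arrays. Its difference was 0.55 ± 0.09 (SE; limma adjusted p = 0.504). Xaf1, a promoter of cell death that interferon induces, differed by 0.41 ± 0.11 (SE; limma adjusted p = 0.538) but was dim. The interferon-inducible GTPase Ifi47 differed by 0.33 ± 0.11 (SE; limma adjusted p = 0.573).

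Of 24 genes of interferons, their receptors and their signal carriers 23 were measured, and 14 had a mean of at least 6. By their mean 20 were higher and 3 lower, where 51.1% of all genes were higher and 47.9% lower. In all 3 experiments 9 were higher and none was lower, against 15.7% and 15.1% of all genes. The median was 0.12, with 0.12, 0.15 and 0.13 in the 3 experiments. No member passed (smallest limma adjusted p = 0.598), and 2 of 23 had an unadjusted p under 0.05, close to the 8.31% of all genes. Jak2, a kinase at the interferon-gamma receptor, read 9.73, 9.38 and 9.43 on the irradiated arrays and 9.48, 9.12 and 9.25 on the control arrays, a difference of 0.23 ± 0.09 (SE). Its groups overlapped although each pair differed in the same direction. The RNA sensor Ifih1 differed by 0.27, the transcription factor Stat2 by 0.24 and the interferon Ifna4 by 0.27, all 3 of them dim. Genes of the gp130 and STAT3 pathway, a second route by which cytokines act on stromal cells, were all measured, 13 of 13. By their mean 10 were higher and 3 lower, where 51.1% and 47.9% of all genes were, and the median was 0.15. None passed the limma threshold (smallest adjusted p = 0.538) and 4 of 13 had an unadjusted p under 0.05, against 8.31% of all genes. Named from that list were the transcription factor gene Cebpd at 0.55, the receptors Lifr at 0.35 and Osmr at 0.26, and the kinase gene Pim1 at -0.27.

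**Figure D3:**
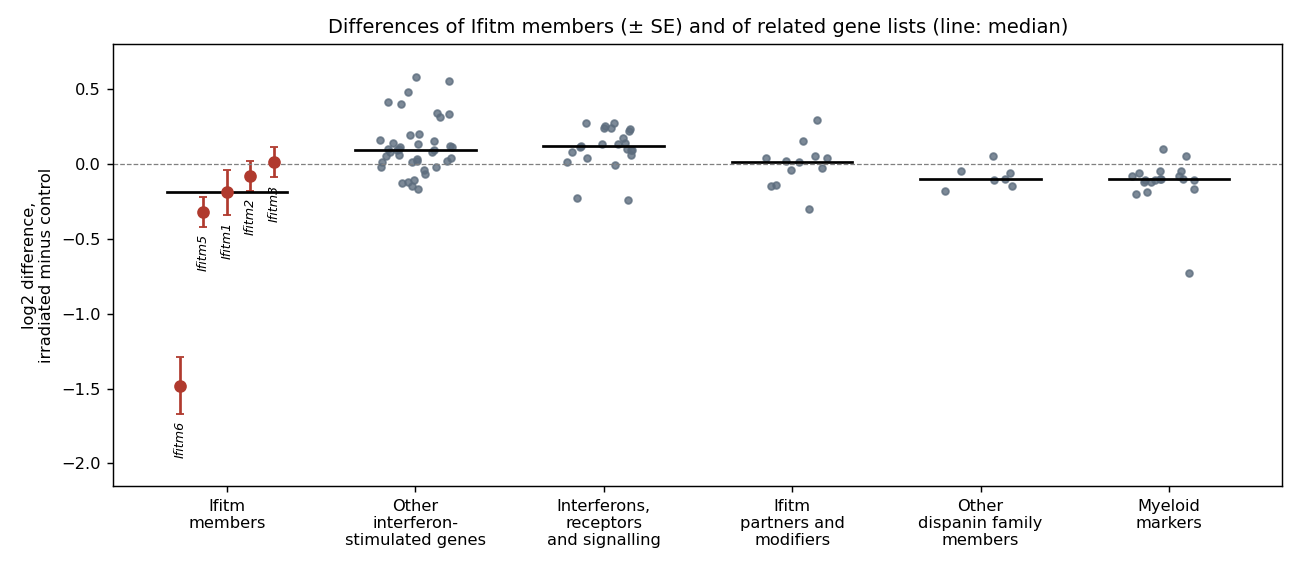
Log2 differences, irradiated minus control, of the 5 Ifitm members with their SE and of the measured genes of 5 lists, 1 point a gene, with a line at each median. Ifitm6, at -1.48, was picked with its difference known, so its place below every point of the other lists is no test. The medians of the interferon-stimulated genes (0.09) and of interferon signalling (0.12) lie above 0.

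Transcripts of genes whose proteins bind or modify Ifitm proteins were present throughout, all 12 measured of 13 at a mean of at least 6. By their mean 7 were higher and 5 lower in irradiated cultures, where 51.1% and 47.9% of all genes were. The median was 0.01 and none passed the limma threshold (smallest adjusted p = 0.569). Of the 12, Zdhhc20 alone had an unadjusted p under 0.05 (8.31% of all genes). This palmitoyltransferase, which attaches the fatty acid that anchors human IFITM3 in membranes, read 9.29, 9.35 and 9.40 on the irradiated arrays and 9.48, 9.70 and 9.77 on the control arrays. All irradiated arrays were below the controls, as in 4.82% of all probe sets, with a difference of -0.30 ± 0.10 (SE). Fyn, a kinase that phosphorylates IFITM3 in human cells, differed by 0.29 ± 0.14 (SE), with 0.65 in experiment 3 and 0.13 and 0.08 in the others. The tetraspanin Cd9 differed by -0.14 and the sterol carrier Osbp by -0.15.

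Relatives of the family outside the 5 members were mostly dim. Of 9 other dispanin genes 7 were measured and 1, Trarg1, had a mean of at least 6. By their mean 6 of the 7 were lower, where 47.9% of all genes were, and the median was -0.10. None passed the limma threshold (smallest adjusted p = 0.673) and none had an unadjusted p under 0.05, where 8.31% of all genes did. Trarg1, which takes part in moving glucose transporters in fat cells, read 7.26, 6.73 and 6.85 on the irradiated arrays and 7.05, 6.95 and 6.99 on the control arrays, and the groups overlapped. Prrt1 differed by -0.18, Syndig1l by -0.15, Tmem91 by -0.11 and Ifitm10 by -0.10, all below 6 in both groups. Ifitm10 lies on the same chromosome away from the cluster. Ifitm7 had means below 6 too and differed by -0.06.

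Listed genes from around the cluster differed in both directions. Of 11 listed 10 were measured, 6 higher and 4 lower by their mean, where 51.1% and 47.9% of all genes were. The median was 0.02, and none passed the limma threshold (smallest adjusted p = 0.771). None had an unadjusted p under 0.05 either, where 8.31% of all genes did. The direct neighbours were dim, with Pgghg, an enzyme that trims collagen sugars, differing by 0.08 ± 0.11 (SE) and the glycosyltransferase gene B4galnt4, which lies beside Ifitm6, by -0.02 ± 0.18 (SE). The innate immune sensor Nlrp6 differed by -0.16. Bet1l, a vesicle fusion protein, differed by 0.19 and Odf3 by 0.11, and neither is among the genes nearest the cluster.

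The cultures carried transcripts of several cell types. Stromal markers were present, 10 of 11 measured at a mean of at least 6, as were fat cell markers, 8 of 8. Myeloid markers were bright as well, 17 of 19 measured, among them Lyz2, with means of 14.16 in irradiated and 14.21 in control cultures, and the macrophage growth factor receptor Csf1r, with 12.92 in irradiated and 13.03 in control cultures. Endothelial markers (0 of 7) and primordial germ cell markers (0 of 9) did not reach that level. In bulk RNA, fewer cells of a type and less RNA per cell cannot be told apart.

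Of the 19 myeloid markers measured 17 were lower by their mean in irradiated cultures, where 47.9% of all genes were. In all 3 experiments 6 were lower (15.1% of all genes), and the list's median was -0.10. None passed the limma threshold (smallest adjusted p = 0.538) and 1 of 19, Cd14, had an unadjusted p under 0.05 (8.31% of all genes). The log2 of their summed signal ranged from 15.74 to 16.25 in irradiated and from 15.94 to 16.42 in control cultures. Among them S100a9 and Ccr2 stayed below 6. The markers' median differences in experiments 1, 2 and 3 were -0.24, 0.08 and -0.13, and the differences of Ifitm6 were -1.03, -1.38 and -2.03. Whether the amount of myeloid cells has a part in the Ifitm6 values was not tested. Cd14, a receptor for bacterial lipopolysaccharide, read 11.10, 12.26 and 11.50 on the irradiated arrays and 11.94, 12.43 and 12.68 on the control arrays, a difference of -0.73 ± 0.19 (SE). Laptm5, Ctss and Cd52 differed by -0.19, -0.17 and -0.20. Stromal markers differed in both directions around a median of 0.08. An unadjusted p under 0.05 was found for 4 of 11, the adhesion molecules Vcam1 at 0.49 and Alcam at -0.33, the growth factor receptor Pdgfrb at -0.28 and the surface enzyme Nt5e at 0.24. Endothelial markers had a median of -0.07, with 1 of 7 at such a p, the dim Vwf at -0.51. The medians were -0.02 for fat cell and 0.03 for germ cell markers, with 0 of 8 and 0 of 9 at such a p. No gene of these 4 lists passed the limma threshold.

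The genes most like Ifitm6, Ifitm2 and Ifitm3, the members with a mean of at least 6 in 1 group, were sought among 9088 named genes with a mean of at least 6 in 1 group, by Pearson correlation over the 6 arrays. The arrays are shared and the best of many were taken, so r is a description. For Ifitm6 they were Dym (r = 0.998), a Golgi protein, the RNA helicase Ddx6 (r = 0.991), the neutrophil collagenase Mmp8 (r = 0.991) and Hpx (r = 0.991), the haem carrier haemopexin. Mmp8 read 5.04, 5.44 and 5.53 on the irradiated arrays and 5.64, 6.10 and 6.74 on the control arrays, a difference of -0.82 ± 0.14 (SE). Hpx read 5.78, 5.99 and 6.03 on the irradiated arrays and 6.09, 6.70 and 7.08 on the control arrays, a difference of -0.69 ± 0.15 (SE). As with Ifitm6, both reached a mean of 6 in control cultures alone. The likeness in order that follows is what the choice of these genes fixed. Dym put the 6 arrays in the same order as Ifitm6, and Ddx6 in the same order but for the irradiated arrays of experiments 2 and 3, both over a much smaller span, with differences of -0.25 and -0.10.

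**Figure D4:**
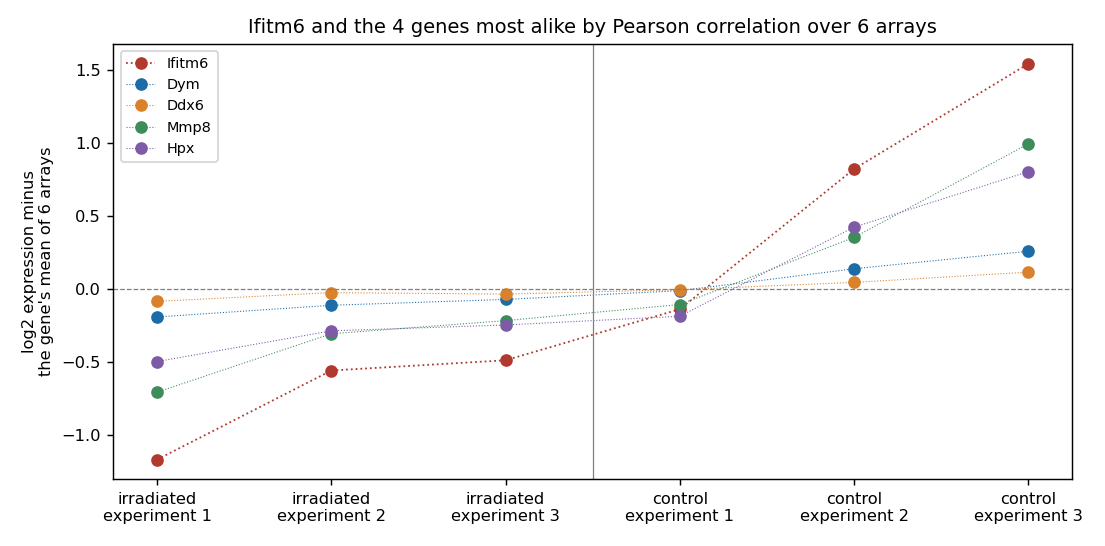
Log2 expression of Ifitm6 and of its 4 closest genes by Pearson correlation, each minus its own mean of 6 arrays, for the irradiated arrays on the left and the control arrays on the right, with dotted lines as a guide to the eye. The genes were chosen for following Ifitm6 over these arrays, and what differs is the span, with differences of -1.48 for Ifitm6, -0.82 for Mmp8, -0.69 for Hpx, -0.25 for Dym and -0.10 for Ddx6.

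For Ifitm2 the closest genes were Aup1 (r = 0.996), a protein of lipid droplets and the endoplasmic reticulum, the mannosidase Man1b1 (r = 0.991), Dhcr7 (r = 0.991), an enzyme at the end of cholesterol synthesis, and Ptms (r = 0.988). Dhcr7 read 7.43, 7.43 and 7.77 on the irradiated arrays and 7.43, 7.48 and 7.94 on the control arrays. Like Ifitm2 it was higher on both arrays of experiment 3, and the 4 genes differed between the groups by -0.07 to -0.01. For Ifitm3 they were Ecm1 (r = 0.989), a secreted matrix protein, Pxk (r = 0.988), Gcn1 (r = 0.976), a partner of the amino acid sensor kinase, and the adaptor Sh2b1 (r = 0.960). Their differences lay between -0.01 and 0.02.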

How the data were processed

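Transcript levels of 3 irradiated and 3 control cultures of mesenchymal stem cells were read with Affymetrix mouse arrays. Each deposited value is a probe set's log2 signal, which the authors made with RMA and the affy package, per the submitters' processing notes, where limma is also named. RMA summarises the probes of a set into 1 value and makes the arrays' distributions alike. Tests did not use the 64 array controls, leaving 45037 probe sets, of which 34945 carried 1 gene symbol, 932 several and 9160 none here.

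The groups were compared by limma (version 3.58.1, R 4.3.3; lmFit and eBayes, two-sided; p adjusted by Benjamini-Hochberg across all probe sets, threshold 0.05), with the experiment as a block because the design text sets each irradiated culture against its own control. Across genes, the paired arrays' departures from their group means correlated at 0.787, 0.028 and 0.324 in the 3 experiments, so the pairing rests on the design text. The fit was also run on simulated arrays, drawn without differences between experiments, to check that its mean estimate came near a known change. That run does not tell how often a change is found in the real arrays. In lists a gene was represented by its probe set with the highest mean, and 166 of 181 listed genes in 12 lists were measured. The members and lists were chosen with earlier results of these data known. Named genes were all members, up to 4 genes of each list with the largest moderated statistic, and the 4 genes most correlated with each member at a mean of at least 6. Ifitm7, Trarg1, Sp7, Lyz2, Csf1r, S100a9, Ccr2 and B4galnt4 were chosen after their values were seen. Also tried were fits with no block or a random one, with 1 experiment omitted, quantile normalization, median centring, dim probe sets left out, array weights, a trend with a robust prior, and means over probe sets. Promoter sequences are RefSeq's for GRCm38.p6. Plots used matplotlib 3.10.9 (Python 3.11.15).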

Additional observations from a re-analysis of the deposited data

Results flagged for a closer look

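Spiked-in hybridisation controls enter no comparison. In experiment 3 their mean over 18 probe sets was 11.73 for the irradiated and 11.23 for the control culture, 0.502 log2 units apart. Groups of 3 arrays are too small for a test of single outlying values.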

How the results depend on the processing

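Ifitm6 was lower in irradiated cultures under all 10 alternatives tried for it, between -1.70 and -1.20 with an experiment left out and between -1.48 and -1.32 otherwise. Ifitm5 lay between -0.36 and -0.25 with an experiment left out and between -0.32 and -0.28 otherwise. Ifitm1 lay between -0.35 and 0.00, Ifitm2 between -0.12 and 0.00 and Ifitm3 between -0.03 and 0.06 with an experiment left out, so their small differences rest on experiment 3 or change sign. Without the replicate block the Ifitm6 difference was -1.48 with an SE of 0.38, against 0.19 with it, and no probe set passed in either fit. With a random replicate block 2 probe sets passed, neither of them an Ifitm gene. The unadjusted p under 0.05 was reached by 3631 probe sets with the block, 2168 without it and 4824 with array weights. With experiment 1, 2 or 3 left out it was reached by 1692, 2709 and 3748. No gene of the 2 interferon lists passed under any alternative. That says little of the lists, since apart from the 2 probe sets with a random block nothing passed at all. The median of the interferon signalling list was 0.10 with dim probe sets left out and 0.10 with means over probe sets, and between 0.11 and 0.14 with an experiment left out. That of the other interferon-stimulated genes was 0.05 with array weights, 0.07 with means over probe sets and between 0.06 and 0.12 with an experiment left out. Means over probe sets were not run for the members, which have 1 probe set each, and Ifitm1 and Ifitm5 drop out where dim probe sets are left out. Dim signal limits what can be said of Ifitm1, Ifitm5 and the irradiated arrays of Ifitm6.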
